A study of Homo sapiens
Mus musculus and Homo sapiens with 12 samples.

Results

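Heterokaryons at day 2 after fusion were compared with unfused fibroblasts, the human parent of the fused cells. In a heterokaryon the nuclei of 2 different parent cells lie side by side in a shared cytoplasm. Here the parents were D3 mouse embryonic stem cells and MRC5 cells, a line of human lung fibroblasts. The members are 4 of the 12 samples of a polyA RNA sequencing series, chosen by title: 2 samples of day 2 heterokaryons and 2 of the 3 samples of unfused MRC5 fibroblasts. The third fibroblast sample lists no human transcript and could not be used. Each heterokaryon sample came from at least 30000 sorted fused cells; the labels give no treatment of the unfused fibroblasts beyond being MRC5 cells without fusion. No replicate is said to be a separate culture, so the spread behind the p-values may be technical. That spread was pooled over 10 libraries of the replicated groups, among them heterokaryons at days 1 and 3 and the co-cultures described below. In the comparison with fibroblast replicate 2 alone, 9 libraries shared it. The p-values thus do not rest on the spread of the 4 samples alone. Values of 2 co-cultures, in which both parents grew together without fusion, are set beside those of named genes, as are, for some, values of the 1 sample of homokaryons, sorted products of fibroblasts fused with each other. Only human transcripts were analysed.

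Fusion of a somatic cell with an embryonic stem cell exposes the somatic nucleus to the factors of a pluripotent cell. It is a classical means of studying how a differentiated genome is reprogrammed, because the nuclei stay apart and species differences let the transcripts of each parent be counted separately. Fibroblasts, the somatic parent here, are mesenchymal cells that make interstitial collagens, elastic fibres and matrix proteases, and they answer to inflammatory cytokines, TGF beta and mechanical load.

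Each deposited table lists transcripts in the order of their accessions and stops at a point of its own, so only part of the genome can be compared. Of 18804 genes, 2416 were covered by both day 2 and both fibroblast samples, and 4731 by both day 2 samples and fibroblast replicate 2, whose table runs further. Levels are summed over a gene's coding transcripts and called RPKM (reads scaled by transcript length and library size); this unit is inferred from the values, and read totals are not given. Differences were tested with limma on log2(RPKM + 1), and genes with a Benjamini-Hochberg adjusted p under 0.05 are named as called. This scale understates the change of genes at low levels. Where 2 fibroblast values follow a gene they are replicates 1 and 2; where 1 follows, it is replicate 2. A listing at 0 can be a failed estimate, so genes at 0 are given as listed, with no fold.

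Against both fibroblast samples, 138 of 767 genes tested were called (18%): 105 were higher (13.7%) and 33 lower (4.3%) in day 2 heterokaryons. An unadjusted p under 0.05 was reached by 246, and 470 of the differences (61.3%) were above 0. A gene was tested if it reached 1 RPKM in at least 2 of the samples. For 116 genes under 1 RPKM in both fibroblast samples that came from day 2 alone, which fixes their direction, and 51 of the 105 higher calls are among them; over the other 651 the median difference was 0.12. The reverse held for 22 genes under 1 RPKM in both day 2 samples, CHRM2 among them, which could only be lower. Among the most raised were an inflammatory cytokine (IL1B), a complement component (C3), genes normally used by the cleavage-stage embryo (KHDC1L, TRIM43B, RFPL4B) and a cAMP phosphodiesterase (PDE4C). Among those that fell were receptors and ligands of the fibroblast surface and surroundings (CHRM2, GAS6, RGMB, BDKRB1, ENG) and the mechanosensitive channel PIEZO1. The call count depended on each of the 4 samples: it was 66 without day 2 replicate 1, 72 without day 2 replicate 2, 30 without fibroblast replicate 1 and 32 without fibroblast replicate 2. The median difference over all genes tested was 0.35; upper quartile scaling brought it to 0.19 and quantile normalization to -0.02. Higher genes made up 76.1% of the calls as deposited, 66.7% with the first of these scalings and 52.3% with the second.

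Against fibroblast replicate 2 alone, 84 of 2027 genes were called (4.14%), with 62 higher (3.06%) and 22 lower (1.09%). An unadjusted p under 0.05 was reached by 422, and 60.7% of the differences were above 0. Here 271 genes were under 1 RPKM in the fibroblast sample and 21 of the higher calls are among them; the other 1756 had a median of 0.11. A gene under 1 RPKM in both day 2 samples could not enter this set. With a lone fibroblast sample the fit assumes that it varies like the other groups. The count was 36 without day 2 replicate 1 and 17 without day 2 replicate 2. The median difference was 0.27; upper quartile scaling gave 0.16 and quantile normalization -0.05. Of the calls, 73.8% were higher as deposited, 59.1% with quantile normalization and 53.6% with no filter.

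**Figure D1:**
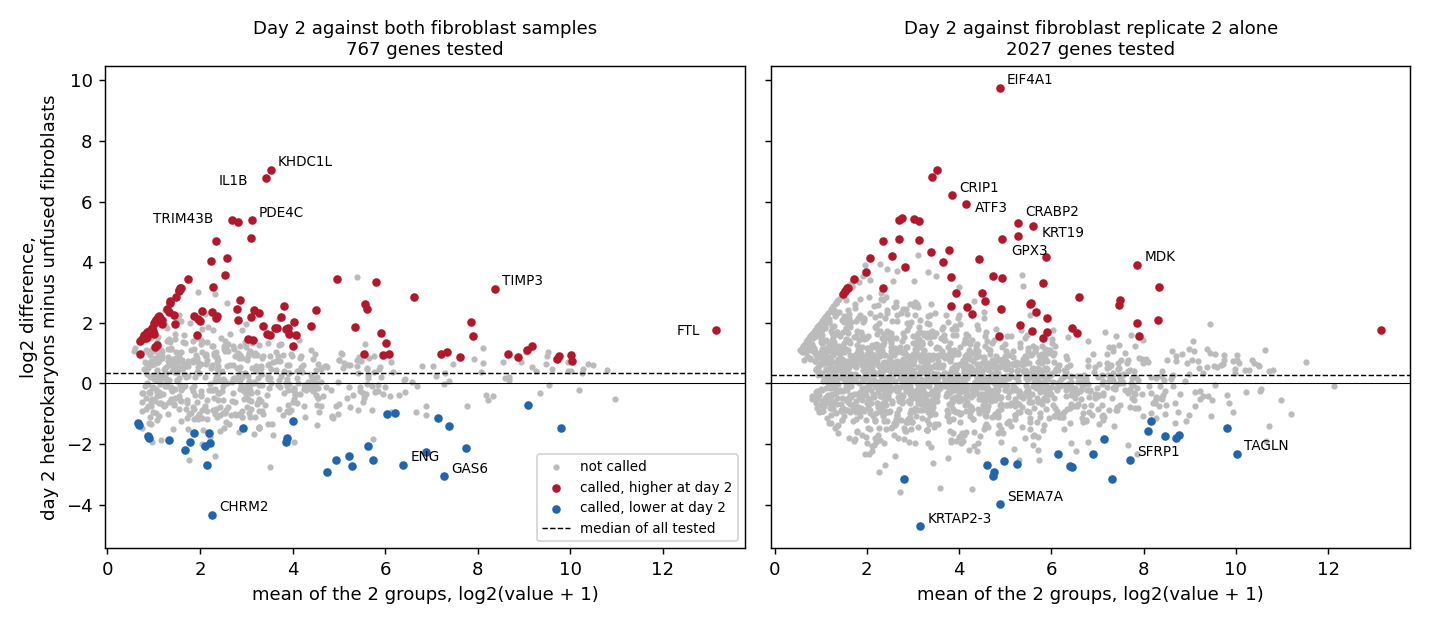
Log2 difference, day 2 heterokaryons minus unfused fibroblasts, against the mean of both groups on the log2(RPKM + 1) scale; each point is 1 gene tested, red and blue points were called, and the dashed line is the median of all genes tested. Of 767 genes in the left panel 105 were called higher and 33 lower, and of 2027 in the right panel 62 and 22; points on the upper left edge, and EIF4A1, are genes at or near 0 in fibroblasts, whose plotted difference has no fold meaning.

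The fibroblast label was checked against 12 markers, of which 6 were covered. Their summed level was 4268 and 4808 RPKM at day 2 and 7269 in fibroblast replicate 2, and none of the 6 was called. COL1A1, a chain of type I collagen, stood at 1576 and 1771 RPKM at day 2, against 2295 and 2456 in fibroblasts (log2 difference -0.51, SE 0.16, adjusted p = 0.0564). VIM, the mesenchymal filament protein vimentin, stood at 1608 and 1698 RPKM at day 2 and 3319 in fibroblasts. LUM, the proteoglycan lumican, was low in both, at 1.46 and 0 RPKM at day 2 and 0.597 in fibroblasts. COL1A2, the partner chain of type I collagen, stood at 976 and 1191 RPKM at day 2 and 1221 and 1304 in fibroblasts. For all of these but LUM, both day 2 values lay below the fibroblast values. In bulk samples, fewer cells of a type and less RNA per cell cannot be told apart.

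Several genes used by the cleavage-stage embryo were called higher at day 2. In human embryos many of these genes are switched on around genome activation and shut off again soon after. Of 24 listed genes 8 were covered and 6 passed the filter on low values. All 6 were under 1 RPKM in both fibroblast samples, so they passed through day 2 alone and could only be higher there; the 5 calls among them are given gene by gene and not as a result about the list. The same 5 were called with both other scalings.

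KHDC1L, a small KH domain protein, was listed at 138 and 125 RPKM at day 2 and at 0 in both fibroblast samples (adjusted p = 0.00201). RFPL4B, a RING finger protein, was listed at 24.1 and 26.1 RPKM at day 2 and at 0 in both fibroblast samples (adjusted p = 0.001). RFPL4A, of the same family, stood at 13.7 and 23.9 RPKM at day 2, against 0.0726 and 0.254 in fibroblasts (log2 difference 4.05, SE 0.87, adjusted p = 0.0145). Both day 2 samples lay far above both fibroblast samples for all of them.

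LEUTX, a paired-like homeobox factor of genome activation, was listed at 14.5 and 6.80 RPKM at day 2 and at 0 in both fibroblast samples (adjusted p = 0.000682). KDM4E, a histone H3 lysine demethylase, was listed at 7.43 and 8.46 RPKM at day 2, against 0.0273 and 0 in fibroblasts (adjusted p = 0.000649). DUXA, a double homeobox factor of the same stage, stood at 1.90 and 2.24 RPKM at day 2 and 0.144 and 0.503 in fibroblasts, and was not called (adjusted p = 0.0986). Of the 5 called genes, RFPL4A lost its call without any 1 of the 4 samples (largest adjusted p = 0.108), and the other 4 kept theirs.

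TRIM43B, a tripartite motif gene of the same stage that is not on the list, was listed at 37.5 and 45.3 RPKM at day 2 and at 0 in both fibroblast samples (adjusted p = 0.00186). It held without each sample in turn. Its reads can hardly be told from those of its near-identical copy TRIM43: in transcripts of GENCODE 29 their longest reading frames of 1341 bases differ at 7 positions. The stretch of 60 coding bases where they differ most (positions 452 to 511, counted from the start codon, 5′ to 3′) is shown because it bounds how far the value can be given to 1 of them; capitals mark the 3 differing bases.
TRIM43B: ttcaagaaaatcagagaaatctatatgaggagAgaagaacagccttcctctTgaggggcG
TRIM43: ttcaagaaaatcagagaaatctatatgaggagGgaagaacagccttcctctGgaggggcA

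RFPL4A shares 864 aligned bases with its copy RFPL4AL1, with 5 mismatches, so its value is likewise uncertain between copies. The rise of either gene is that of the pair.

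Relatives of these genes are named here after their values were seen, as a description. PRAMEF genes form a family expressed in the early embryo. Of 15 covered against both fibroblast samples, 2 were at 0 in all 4 samples and 5 were tested, PRAMEF4, PRAMEF5, PRAMEF8, PRAMEF11 and PRAMEF12; all 5 passed the filter through day 2 alone and were called higher, and none of the 5 was called against replicate 2 alone. PRAMEF11 was listed at 3.20 and 17.4 RPKM at day 2 and PRAMEF12 at 9.99 and 2.96, and both were at 0 in both fibroblast samples (adjusted p = 0.0174 and 0.0141). PRAMEF8 stood at 3.30 and 8.42 RPKM at day 2 and 0.0174 and 0 in fibroblasts. The day 2 samples lay well apart from each other within this family. Each of the 5 calls was lost without either fibroblast sample, those of PRAMEF5 and PRAMEF12 also without day 2 replicate 1, and those of PRAMEF8 and PRAMEF11 also without day 2 replicate 2 (largest adjusted p from 0.0707 to 0.119). MBD3L3 and MBD3L4, relatives of a methyl-CpG binding subunit, carry the same values in every sample and differ at 2 of 627 coding bases, so they count as 1 measurement: 4.10 and 3.06 RPKM at day 2 against 0.0215 and 0 in fibroblasts (adjusted p = 0.0145, lost without any 1 of the 4 samples, largest adjusted p = 0.108).

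Co-cultures, which hold mouse stem cells beside the fibroblasts, listed TRIM43B, RFPL4A, RFPL4B, LEUTX, KDM4E and the 5 PRAMEF genes at 0 in both samples, and KHDC1L at 0.722 and 0. The homokaryon sample listed all of these genes, and DUXA, at 0. The part of mouse reads in the human values was not tested further. In heterokaryons at day 1 KHDC1L was at 8.21 and 0.854 RPKM and LEUTX at 0 in both samples. At day 3 KHDC1L was at 15.1 and 107 and LEUTX at 0 and 0.382. LEUTX was thus above 1 RPKM at day 2 alone among the 3 days; differences between days were not tested.

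**Figure D2:**
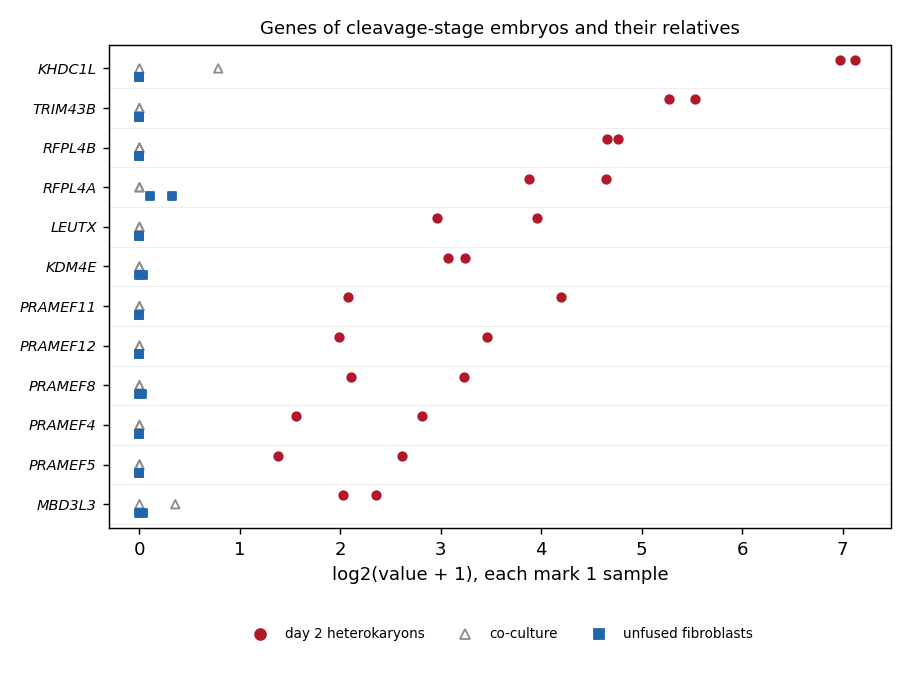
Levels of 12 genes of the cleavage-stage embryo and their relatives on the log2(RPKM + 1) scale; each mark is 1 sample of day 2 heterokaryons (red circles), co-culture (open triangles) or unfused fibroblasts (blue squares). Every red circle lies to the right of every blue square of its gene, KHDC1L is highest at 138 and 125 RPKM, and co-culture and fibroblast marks lie at or near 0.

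Some inflammatory genes were called higher at day 2, and the homokaryon sample also held IL1B, IL6, SOD2 and ICAM1 above the fibroblasts. IL1B, CXCL8 and IL6 are secreted cytokines and chemokines driven by NFkB, ICAM1 is an adhesion receptor for leukocytes, and SOD2 is the mitochondrial superoxide dismutase that NFkB induces. Of 47 listed NFkB targets, 8 were tested against both fibroblast samples and 4 were called higher (50%, beside 13.7% of all genes), none lower. IL1B, IL6, CXCL8, IL1A and PTGS2 were under 1 RPKM in both fibroblast samples, so their direction was fixed by the filter. Among these 5, 2 were called, beside 51 of the 116 genes so fixed. The other 3 were above 0 with a median of 1.84, beside 0.12 over the 651 genes that passed in the same way. Called higher were 2 of the 3, beside 54 of the 651. Against replicate 2 alone 17 were tested and 4 called higher (23.5%, beside 3.06%). Of the 17, 11 were under 1 RPKM in fibroblasts, and the other 6 were above 0 with a median of 2.02, beside 0.11. The calls were 2 of the 11, beside 21 of 271 over all genes, and 2 of the 6, beside 41 of 1756.

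The homokaryon sample, set against the same fibroblast samples and with no replicate, had medians of 3.22 over those 3 genes and 2.99 over those 6. It held IL1B at 11.5, IL6 at 8.91, SOD2 at 340 and ICAM1 at 54.4 RPKM. Its SOD2 and ICAM1 thus lay above both day 2 samples and its IL1B and IL6 between day 2 and fibroblasts. The difference between day 2 and the homokaryon was not tested.

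IL1B, a fever-inducing cytokine, was at 126 and 97.0 RPKM at day 2, against 0.043 and 0 in fibroblasts. It had the smallest adjusted p of the comparison, 4.69e-06, and held without each sample in turn (largest adjusted p = 0.000389). In co-culture it was at 51.2 and 47.0 RPKM, so unfused mixed cells also lay above fibroblasts alone. IL6, a cytokine of the acute phase response, stood at 14.2 and 25.3 RPKM at day 2 and 0.933 and 0.448 in fibroblasts (log2 difference 3.58, SE 0.74, adjusted p = 0.013), with 5.58 and 5.36 in co-culture.

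SOD2 was at 253 and 273 RPKM at day 2 and 36.0 and 35.1 in fibroblasts (log2 difference 2.85, SE 0.26, adjusted p = 0.000436). ICAM1 stood at 25.9 and 29.2 RPKM at day 2 and 6.66 and 7.24 in fibroblasts (log2 difference 1.84, SE 0.38, adjusted p = 0.0125). In co-culture ICAM1 was at 39.3 and 40.5 RPKM, above the day 2 values, while SOD2 was at 73.9 and 96.6. The calls of IL6 and ICAM1 were lost without any 1 of the 4 samples (largest adjusted p = 0.105 and 0.0992).

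Of the chemokines named here, all but CXCL8 were covered against replicate 2 alone. CCL2, which draws monocytes, was at 52.2 and 67.6 RPKM at day 2 and 8.11 in fibroblasts (log2 difference 2.73, SE 0.51, adjusted p = 0.0224). CCL3, another attractant of leukocytes, was listed at 13.9 and 19.8 RPKM at day 2 and at 0 in fibroblasts (adjusted p = 0.0441). Both calls were lost without either day 2 sample (largest adjusted p = 0.159 and 0.209). CXCL8, the neutrophil attractant, stood at 16.4 and 6.02 RPKM at day 2 and 0.226 and 0.526 in fibroblasts, and was not called against both samples (adjusted p = 0.104). CXCL1, of the same class, was listed at 13.8 and 4.05 RPKM at day 2 and at 0 in fibroblasts, and was not called (adjusted p = 0.147).

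C3, the central component of complement, rose: it was at 43.0 and 44.5 RPKM at day 2, against 0.185 and 0.0287 in fibroblasts (log2 difference 5.34, SE 0.51, adjusted p = 0.000518). Co-culture values were 1.0 and 0 RPKM, and the homokaryon sample had 39.3. The call held without each sample in turn against both fibroblast samples. It was the single called gene among 4 complement genes tested there (25%, beside 13.7% called higher over all genes). Against replicate 2 it was the single one among 6 tested (16.7%, beside 3.06%). CFB, the factor B of the alternative pathway, stood at 11.8 and 13.8 RPKM at day 2 and 0.281 in fibroblasts and missed the threshold (adjusted p = 0.0531). The 6 complement genes had a median of 1.77 at day 2, beside 0.27 over all genes, and 2.95 in the homokaryon sample. C3 and CFB passed the filter through day 2 alone, which fixes their direction. The other 4 had a median of 1.17 at day 2 and 2.16 in the homokaryon sample. Against both fibroblast samples the 3 tested besides C3 had a median of -0.53, with 1 of them above 0.

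Interferon response genes were covered in smaller number. TAP1, a peptide transporter for antigen presentation, was at 75.8 and 79.0 RPKM at day 2 and 21.3 and 19.5 in fibroblasts (log2 difference 1.87, SE 0.22, adjusted p = 0.001). IRF1, a transcription factor of the interferon response, stood at 40.7 and 43.3 RPKM at day 2 and 7.72 in fibroblasts (log2 difference 2.30, SE 0.43, adjusted p = 0.0238). These were the 2 called among 13 tested against replicate 2 (15.4%, beside 3.06% higher over all genes). The list median was 0.92, beside 0.27. IFIT2 passed the filter through day 2 alone, and the other 12 had a median of 0.82, beside 0.11. In the homokaryon sample the median of the 13 was 1.59, with TAP1 at 68.3 and IRF1 at 25.3 RPKM. The call of IRF1 was lost without either day 2 sample (largest adjusted p = 0.157), while that of TAP1 held against both fibroblast samples without each sample in turn.

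Some stress and DNA damage genes rose. ATF3, a stress-induced transcription factor, was at 136 RPKM in both day 2 samples and at 1.29 in fibroblasts (log2 difference 5.91, SE 0.41, adjusted p = 0.000387). DDB2, a damage recognition factor induced by p53, was at 136 and 99.4 RPKM at day 2 and 18.0 and 17.8 in fibroblasts (log2 difference 2.63, SE 0.27, adjusted p = 0.000583). Of 8 p53 and senescence genes tested against replicate 2, these were the 2 higher (25%, beside 3.06% of all genes). Another 1 was lower (12.5%, beside 1.09%), and the median was 1.43, beside 0.27. The ATF3 call held without either day 2 sample, and that of DDB2 against both fibroblast samples held without each sample in turn.

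Antioxidant and metal defence genes were tested in 9 members against both fibroblast samples. Of these, 5 were called higher (55.6%, beside 13.7% of all genes) and none lower. Above 0 were 6 (66.7%, beside 61.3%), and the median was 0.97, beside 0.35 over all genes. Against replicate 2 alone 3 of 22 were called higher (13.6%, beside 3.06%), with a median of 0.71, beside 0.27. FTL, the ferritin light chain that stores iron, was the most abundant gene tested, at 17211 and 16480 RPKM at day 2 and 4870 and 4939 in fibroblasts (log2 difference 1.78, SE 0.24, adjusted p = 0.00201). GPX3, a secreted glutathione peroxidase covered against replicate 2 alone, was at 144 and 174 RPKM at day 2 and 4.87 in fibroblasts (log2 difference 4.76, SE 0.36, adjusted p = 0.000418). GSTP1, a glutathione transferase, stood at 779 and 791 RPKM at day 2 and 359 and 376 in fibroblasts (log2 difference 1.09, SE 0.22, adjusted p = 0.0114). GSTP1 lost its call without any 1 of the 4 samples (largest adjusted p = 0.0992). FTL kept its call without each of them, and GPX3 without either day 2 sample. After upper quartile scaling 3 of the 9 stayed past the threshold, and after quantile normalization 1 did, with a list median of 0.00; FTL is the top gene in every sample, so quantile normalization sets its difference to 0 by construction.

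**Figure D3:**
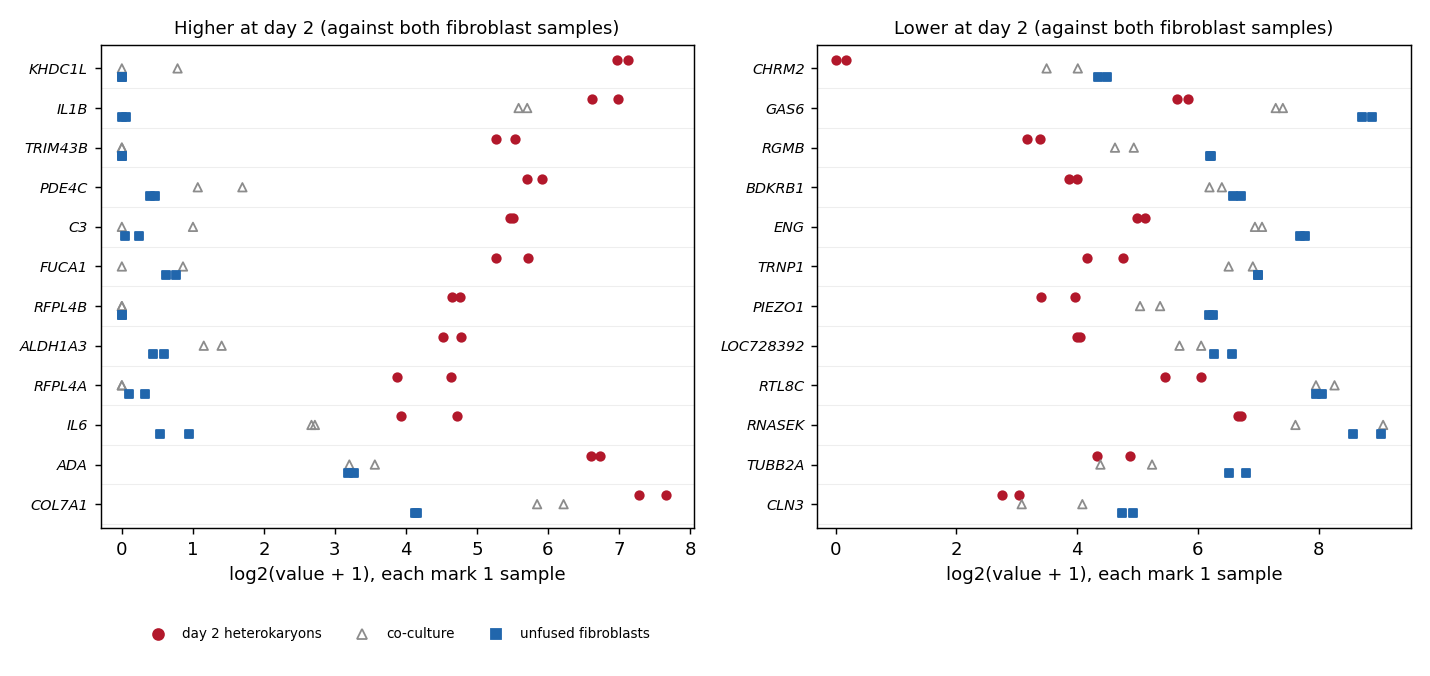
The 12 genes with the largest rise (left) and the 12 with the largest fall (right) among called genes above the median abundance, on the log2(RPKM + 1) scale; each mark is 1 sample of day 2 heterokaryons (red circles), co-culture (open triangles) or unfused fibroblasts (blue squares). Both day 2 values lie on 1 side of both fibroblast values for every gene shown, as the choice of genes requires, while co-culture lies near the fibroblasts for TRIM43B, C3 and ADA and between the groups for IL1B and GAS6.

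Several enzymes were among the other large rises. PDE4C, a phosphodiesterase that degrades cAMP, was at 51.2 and 59.5 RPKM at day 2 and 0.319 and 0.375 in fibroblasts (log2 difference 5.38, SE 0.42, adjusted p = 0.000237). ADA, the adenosine deaminase, was at 105 and 96.6 RPKM at day 2 and 8.65 and 8.12 in fibroblasts (log2 difference 3.44, SE 0.39, adjusted p = 0.000816). Co-culture values were close to fibroblast values for both, at 1.10 and 2.24 RPKM for PDE4C and 10.8 and 8.21 for ADA. FUCA1, a lysosomal fucosidase, stood at 37.6 and 51.4 RPKM at day 2 and 0.542 and 0.702 in fibroblasts (log2 difference 4.8, SE 0.79, adjusted p = 0.00591), and its call was lost without either fibroblast sample (largest adjusted p = 0.0604).

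Retinoid genes appeared in both gene sets. ALDH1A3, which makes retinoic acid, was at 21.9 and 26.3 RPKM at day 2 and 0.506 and 0.358 in fibroblasts (log2 difference 4.13, SE 0.42, adjusted p = 0.000583). CRABP2, which carries retinoic acid to its nuclear receptor, was at 257 and 226 RPKM at day 2 and 5.15 in fibroblasts (log2 difference 5.30, SE 0.41, adjusted p = 0.000418). Co-culture held ALDH1A3 at 1.22 and 1.65 RPKM and CRABP2 at 35.6 and 41.5. The ALDH1A3 call held without each of the 4 samples, and that of CRABP2 without either day 2 sample.

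Growth factor and polyamine genes were also among those covered by replicate 2 alone. SAT1, which acetylates polyamines for their breakdown, was at 174 and 244 RPKM at day 2 and 6.14 in fibroblasts (log2 difference 4.86, SE 0.62, adjusted p = 0.00549). VEGFA, the endothelial growth factor, stood at 76.1 and 63.0 RPKM at day 2 and 11.8 in fibroblasts (log2 difference 2.45, SE 0.39, adjusted p = 0.0133). VEGFA was higher still in co-culture, at 113 and 90.5 RPKM. Both calls were lost without either day 2 sample (largest adjusted p = 0.0872 and 0.0929).

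Several receptors and ligands were among the largest falls, while others, such as ACVRL1, IGF1R, ICAM1 and JAG1, were called higher. CHRM2, a muscarinic acetylcholine receptor, was listed at 0 and 0.121 RPKM at day 2, against 21.6 and 19.3 in fibroblasts (adjusted p = 0.00387). It passed the filter through the fibroblasts alone, so its direction was fixed. BDKRB1, the bradykinin receptor B1, stood at 13.6 and 15.0 RPKM at day 2 and 104 and 95.3 in fibroblasts (log2 difference -2.72, SE 0.38, adjusted p = 0.00209). ENG, the TGF beta co-receptor endoglin, was at 33.7 and 30.9 RPKM at day 2 and 206 and 217 in fibroblasts (log2 difference -2.67, SE 0.27, adjusted p = 0.000583). The day 2 and fibroblast values of these receptors did not overlap, as their choice requires; over all genes tested 76.5% did not. The CHRM2 call was lost without fibroblast replicate 1 (adjusted p = 0.0507); the other calls held.

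GAS6, the ligand of the AXL family of receptor kinases, was at 49.2 and 56.1 RPKM at day 2 and 422 and 471 in fibroblasts (log2 difference -3.06, SE 0.41, adjusted p = 0.00186). RGMB, a BMP co-receptor, stood at 9.48 and 8.0 RPKM at day 2 and 72.6 and 73.1 in fibroblasts (log2 difference -2.93, SE 0.33, adjusted p = 0.000761). PIEZO1, the stretch-gated ion channel, was at 9.63 and 14.6 RPKM at day 2 and 71.3 and 74.9 in fibroblasts (log2 difference -2.53, SE 0.29, adjusted p = 0.000914). In co-culture GAS6 was at 169 and 155, RGMB at 23.7 and 29.7 and PIEZO1 at 32.0 and 40.5 RPKM, in each case between the day 2 and the fibroblast values. All of these calls held without each sample in turn.

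The other falls of the 12 largest were TRNP1, LOC728392, RTL8C, RNASEK, TUBB2A and CLN3, with log2 differences from -1.94 to -2.53. RTL8C, a gene derived from a retrotransposon, held without each sample in turn: it stood at 65 and 43 RPKM at day 2 and 248 and 266 in fibroblasts (adjusted p = 0.001). The other 5 calls were lost without day 2 replicate 1 or either fibroblast sample, and all but that of TUBB2A also without day 2 replicate 2 (largest adjusted p from 0.0892 for TUBB2A to 0.219 for CLN3). TUBB2A, a beta tubulin, stood at 19.2 and 28.2 RPKM at day 2 and 90.7 and 111 in fibroblasts, with 19.9 and 36.8 in co-culture.

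Matrix genes leaned lower. Of 7 interstitial matrix genes tested against both fibroblast samples none was above 0, beside 61.3% of all genes. Called lower were 2 (28.6%, beside 4.3%). The median was -0.73, beside 0.12 over the 651 genes at 1 RPKM or more in at least 1 fibroblast sample. COL5A1, a chain of type V collagen, was at 42.2 and 49.5 RPKM at day 2 and 88.1 and 97.7 in fibroblasts (log2 difference -1.01, SE 0.22, adjusted p = 0.0145). ELN, the elastin of elastic fibres, stood at 1.06 and 1.17 RPKM at day 2 and 8.02 and 7.74 in fibroblasts (log2 difference -2.07, SE 0.57, adjusted p = 0.0389). With quantile normalization 4 of the 7 were called lower and with upper quartile scaling 5. Both calls were lost without day 2 replicate 1 or either fibroblast sample, and that of ELN also without day 2 replicate 2 (largest adjusted p = 0.131 and 0.185).

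Against replicate 2 alone, 20 matrix genes were tested, 4 of them above 0 (20%, beside 60.7% of all genes). The median was -0.55, beside 0.27, and 5% were called lower, beside 1.09%. MFAP4, a microfibril protein, was the one called: it stood at 8.60 and 8.04 RPKM at day 2 and 75.4 in fibroblasts (log2 difference -3.03, SE 0.58, adjusted p = 0.0263), and its call was lost without either day 2 sample (largest adjusted p = 0.168). COL7A1, the anchoring fibril collagen of basement membranes, is not on this list and was higher, at 154 and 202 RPKM at day 2 and 16.5 and 16.8 in fibroblasts (log2 difference 3.33, SE 0.25, adjusted p = 0.000237). In co-culture COL7A1 was at 56.6 and 73.5 RPKM. TGFBI, a secreted protein induced by TGF beta, was also higher, at 1573 and 1319 RPKM at day 2 and 742 and 748 in fibroblasts (log2 difference 0.95, SE 0.19, adjusted p = 0.012), but not with quantile normalization (adjusted p = 0.166) or without day 2 replicate 1 or either fibroblast sample (largest adjusted p = 0.102).

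Matrix protease genes split. TIMP3, a matrix-bound inhibitor of metalloproteinases, was at 1106 and 863 RPKM at day 2 and 116 and 107 in fibroblasts (log2 difference 3.12, SE 0.27, adjusted p = 0.00035). TIMP2, of the same inhibitor family, was at 144 and 174 RPKM at day 2 and 474 in fibroblasts (log2 difference -1.58, SE 0.26, adjusted p = 0.0141). PLAUR, the urokinase receptor, stood at 46.7 and 23.1 RPKM at day 2 and 227 in fibroblasts (log2 difference -2.75, SE 0.53, adjusted p = 0.0263). The 16 genes of this list tested against replicate 2 had a median of 0.01, with 1 higher and 3 lower. These shares were 6.25% and 18.8%, beside 3.06% and 1.09% of all genes. TIMP3 held without each sample, and TIMP2 and PLAUR lost their calls without either day 2 sample (largest adjusted p = 0.0906 and 0.159).

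TGF beta, BMP and Wnt genes had more falls than rises among the calls against replicate 2. ID2, a helix-loop-helix inhibitor induced by BMP, stood at 1.5 and 1.18 RPKM at day 2 and 19.7 in fibroblasts (log2 difference -3.15, SE 0.63, adjusted p = 0.0313). SFRP1, a secreted Wnt antagonist, was at 106 and 69.3 RPKM at day 2 and 495 in fibroblasts (log2 difference -2.51, SE 0.40, adjusted p = 0.0133), with 704 and 744 in co-culture. SEMA7A, a semaphorin that binds integrins, was at 6.64 and 6.31 RPKM at day 2 and 117 in fibroblasts (log2 difference -3.98, SE 0.48, adjusted p = 0.00401). Of 15 TGF beta and BMP targets 3 were lower (20%, beside 1.09% of all genes) and none higher (beside 3.06%), at a median of -0.21. Of 11 Wnt genes SFRP1 alone was called (9.09% lower). All 3 calls were lost without at least day 2 replicate 2 (largest adjusted p = 0.159, 0.111 and 0.0546).

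ACVRL1, the BMP receptor ALK1 best known from endothelial cells, was instead higher against both fibroblast samples, at 25.8 and 30.2 RPKM at day 2 and 5.71 and 4.99 in fibroblasts (log2 difference 2.19, SE 0.39, adjusted p = 0.00781). Co-culture had 18.9 and 24.0 RPKM. Without either fibroblast sample the call was lost (largest adjusted p = 0.0793). The 5 covered endothelial markers, among them PECAM1 and VWF, summed to 5.44 and 2.82 RPKM at day 2 and 5.71 in fibroblasts, and none was called.

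**Figure D4:**
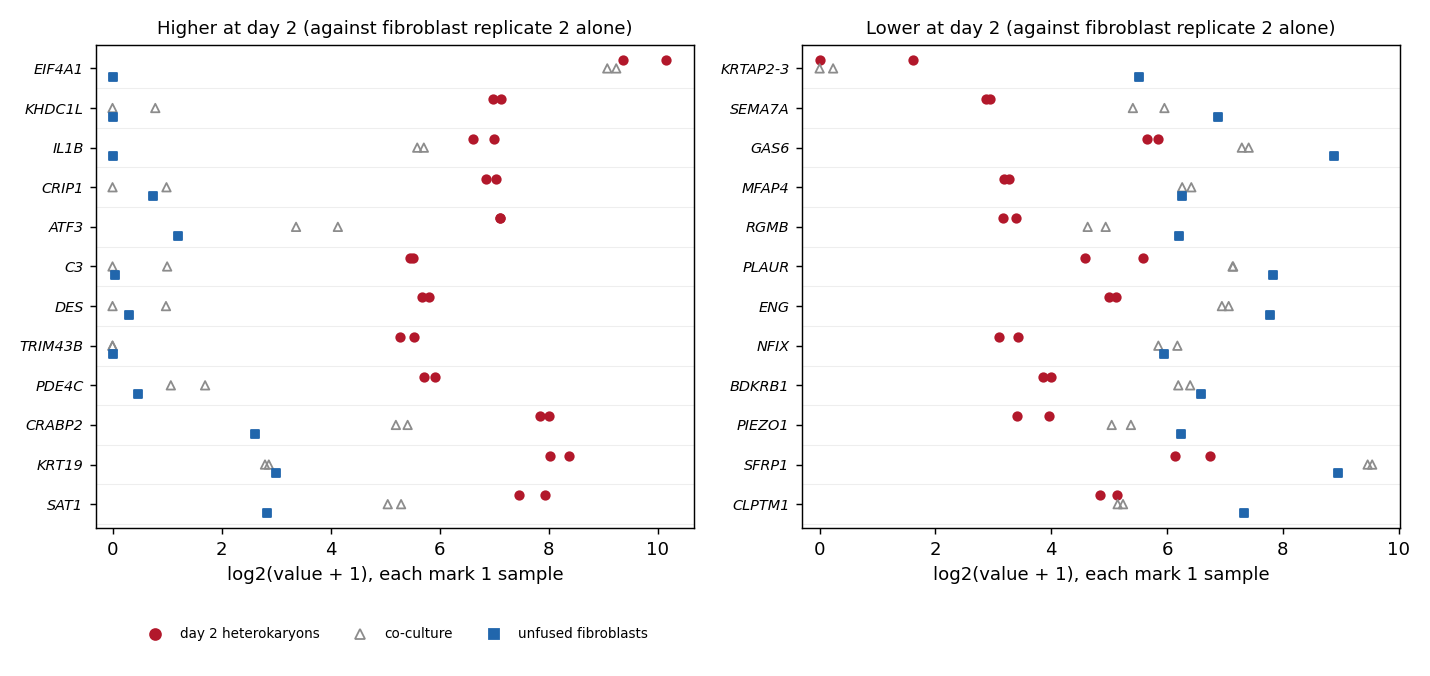
The 12 genes with the largest rise (left) and the 12 with the largest fall (right) among called genes above the median abundance that are covered by fibroblast replicate 2, on the log2(RPKM + 1) scale; each mark is 1 sample of day 2 heterokaryons (red circles), co-culture (open triangles) or unfused fibroblasts (1 blue square per gene). EIF4A1 is at 1134 and 657 RPKM at day 2 and listed at 0 in fibroblasts, where co-culture has 601 and 537; SFRP1, MFAP4 and NFIX are lower at day 2 than in co-culture and fibroblasts alike.

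Genes of other cell types' filaments and junctions were few among the calls. KRT19, a keratin of simple epithelia, was at 259 and 329 RPKM at day 2 and 6.95 in fibroblasts (log2 difference 5.2, SE 0.40, adjusted p = 0.000418), with 5.94 and 6.29 in co-culture. CLDN4, a tight junction claudin, stood at 20.5 and 32.2 RPKM at day 2 and 0.859 in fibroblasts (log2 difference 3.85, SE 0.75, adjusted p = 0.0284). KRT8, the usual keratin partner in simple epithelia, was listed at 0 and 233 RPKM in the day 2 samples and at 0 in fibroblasts, and did not pass the filter. Of 8 epithelial markers 5 were covered, and they summed to 297 and 619 RPKM at day 2, 12.5 and 24.6 in co-culture and 10.3 in fibroblasts; EPCAM, a defining marker, was at 1.80 and 0 RPKM at day 2. The part of other cell types in these values was not tested. The KRT19 call held without either day 2 sample, and that of CLDN4 did not (largest adjusted p = 0.192).

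DES, the muscle filament protein desmin, was at 55.1 and 49.9 RPKM at day 2 and 0.234 in fibroblasts (log2 difference 5.44, SE 0.66, adjusted p = 0.00401), while co-culture had 0.972 and 0. TAGLN, the actin-binding protein transgelin of smooth muscle and myofibroblasts, went the other way, at 499 and 431 RPKM at day 2 and 2324 in fibroblasts (log2 difference -2.32, SE 0.46, adjusted p = 0.0299). ACTA2, the smooth muscle actin, stood at 154 and 164 RPKM at day 2 and 170 in fibroblasts. DES passed the filter through day 2 alone and could only be higher. The skeletal muscle genes MYOG, CKM and ACTA1 were at 0 in day 2 and fibroblast samples. The calls of DES and TAGLN were lost without either day 2 sample (largest adjusted p = 0.0661 and 0.209).

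CRIP1, a small LIM domain protein, was at 114 and 131 RPKM at day 2 and 0.678 in fibroblasts (log2 difference 6.20, SE 0.55, adjusted p = 0.000933), and held without either day 2 sample. ZYX, the focal adhesion protein zyxin, was at 184 and 201 RPKM at day 2 and 647 in fibroblasts (log2 difference -1.75, SE 0.26, adjusted p = 0.00951). ITGA5, the integrin subunit that binds fibronectin, stood at 192 and 181 RPKM at day 2 and 438 in fibroblasts (log2 difference -1.23, SE 0.26, adjusted p = 0.0382). Of 18 integrin and adhesion genes tested against replicate 2 these were the 2 lower (11.1%, beside 1.09% of all genes). Another 1 was higher (5.56%, beside 3.06%). The calls of ZYX and ITGA5 were lost without either day 2 sample (largest adjusted p = 0.0691 and 0.17). The chaperones CRYAB and HSPB1 split too: CRYAB was at 514 and 360 RPKM at day 2 and 71.0 in fibroblasts (adjusted p = 0.00852). HSPB1 was at 193 and 257 RPKM at day 2 and 777 in fibroblasts (adjusted p = 0.0197), and both calls were lost without either day 2 sample (largest adjusted p = 0.0711 and 0.139).

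KRTAP2-3, a hair keratin associated protein, was lower against replicate 2, at 2.05 and 0 RPKM at day 2 and 44.7 in fibroblasts (adjusted p = 0.00951). The call held without either day 2 sample but not with a pseudocount of 0.1 (adjusted p = 0.0888) or with a spread from the compared samples alone (adjusted p = 0.0767), and its co-culture values were 0.175 and 0 RPKM. NFIX, a nuclear factor I transcription factor, stood at 7.58 and 9.72 RPKM at day 2 and 60.4 in fibroblasts (log2 difference -2.68, SE 0.44, adjusted p = 0.0141), with 56.6 and 71.4 in co-culture. CLPTM1, a transmembrane protein, was at 27.6 and 34.2 RPKM at day 2 and 159 in fibroblasts (adjusted p = 0.0353), with 36.7 and 34.4 in co-culture. The calls of NFIX and CLPTM1 were lost without either day 2 sample (largest adjusted p = 0.0888 and 0.192).

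A few genes that most cells use were listed at or near 0 in 1 group. EIF4A1, a helicase of translation initiation, was listed at 1134 and 657 RPKM at day 2, at 601 and 537 in co-culture and at 0 in fibroblast replicate 2. UBE2L3, a ubiquitin conjugating enzyme named after its values were seen, was at 28.5 and 37.6 RPKM at day 2, 63.5 and 39.6 in co-culture and 0.240 in fibroblasts. VDAC1, a channel of the mitochondrial outer membrane, was listed at 0 in both day 2 samples. Such listings are why values at 0 are not read as absence here. Of 12 abundant conserved genes tested against replicate 2, EIF4A1 was the 1 called (8.33%, beside 3.06% called higher over all genes), and the median was 0.17. EIF4A1 passed the filter through day 2 alone, so it could only be higher.

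Some further rises, named after their values were seen, were large in abundant genes. MDK, the growth factor midkine, was at 985 and 832 RPKM at day 2 and 59.0 in fibroblasts (log2 difference 3.92, SE 0.44, adjusted p = 0.00292), with 227 and 139 in co-culture. SDC4, the heparan sulfate proteoglycan syndecan 4, was at 450 and 473 RPKM at day 2 and 67.8 in fibroblasts (log2 difference 2.75, SE 0.27, adjusted p = 0.00147). SLC25A5, a mitochondrial ADP/ATP carrier, was at 466 and 462 RPKM at day 2 and 111 and 115 in fibroblasts (log2 difference 2.03, SE 0.22, adjusted p = 0.000678). The MDK call was lost without day 2 replicate 2 (adjusted p = 0.0546); that of SDC4 held without either day 2 sample, and that of SLC25A5 against both fibroblast samples without each of the 4.

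Growth factor receptors moved both ways. IGF1R, the receptor of insulin-like growth factor 1, stood at 27.8 and 24.3 RPKM at day 2 and 6.87 and 6.71 in fibroblasts (log2 difference 1.79, SE 0.37, adjusted p = 0.0125). MET, the receptor of hepatocyte growth factor, was at 1.33 and 1.37 RPKM at day 2 and 8.20 and 8.02 in fibroblasts (log2 difference -1.95, SE 0.46, adjusted p = 0.0198). These were the 2 called of 6 growth factor and receptor genes tested against both fibroblast samples. The shares were 16.7% higher and 16.7% lower, beside 13.7% and 4.3% of all genes. Both calls were lost without any 1 of the 4 samples (largest adjusted p = 0.102 and 0.121). JAG1, a Notch ligand named after its values were seen, was at 32.4 and 34.5 RPKM at day 2 and 4.86 and 4.81 in fibroblasts (adjusted p = 0.0014) and held without each sample in turn.

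Cholesterol synthesis enzymes had 1 call in each gene set, in opposite directions. Against both fibroblast samples 1 of 3 tested was lower (33.3%, beside 4.3% of all genes). Against replicate 2 alone 1 of 10 was higher (10%, beside 3.06%). MVK, the mevalonate kinase, stood at 2.30 and 1.05 RPKM at day 2 and 6.71 and 7.49 in fibroblasts (log2 difference -1.64, SE 0.45, adjusted p = 0.0371). TM7SF2, a sterol reductase, was at 54.1 and 44.8 RPKM at day 2 and 2.12 in fibroblasts (log2 difference 4.01, SE 0.65, adjusted p = 0.0133). The MVK call was lost without any 1 of the 4 samples and that of TM7SF2 without either day 2 sample (largest adjusted p = 0.225 and 0.115).

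**Figure D5:**
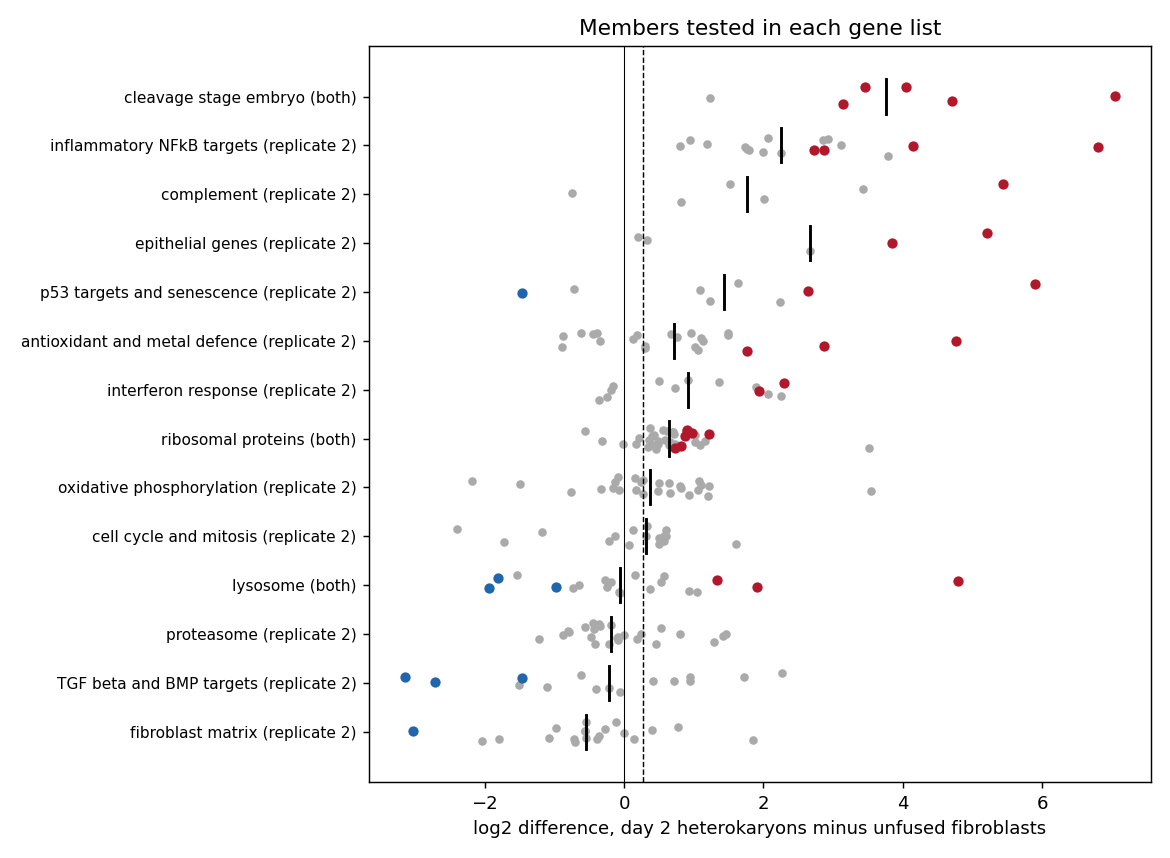
Log2 difference, day 2 heterokaryons minus unfused fibroblasts, of the tested members of 14 gene lists; each point is 1 gene, red and blue points were called higher and lower, short black bars are list medians, and the dashed line is the median of all genes tested against replicate 2 (0.27). The name of each list is followed by the fibroblast samples used; all 6 cleavage-stage genes and 11 of the 17 NFkB targets were under 1 RPKM in fibroblasts and could only lie to the right. The median of fibroblast matrix genes is -0.55.

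Ribosomal protein genes were called at a share near that of all genes. Of 35 tested against both fibroblast samples 6 were called higher (17.1%, beside 13.7% of all genes), and 32 differences were above 0 (91.4%, beside 61.3%), with a median of 0.64. Against replicate 2 alone 41 of 47 were above 0 and none was called. RPL4, of the large subunit, was at 1339 and 1388 RPKM at day 2 and 830 and 805 in fibroblasts (log2 difference 0.74, SE 0.15, adjusted p = 0.012). RPS12, of the small subunit, stood at 1153 and 1226 RPKM at day 2 and 656 and 620 in fibroblasts (log2 difference 0.90, SE 0.22, adjusted p = 0.0238). Each of the 6 calls was lost without any 1 of the 4 samples (largest adjusted p from 0.115 to 0.237). With upper quartile scaling none was called and the median was 0.45; with quantile normalization 3 were called higher and 1 lower and the median was 0.23. Summed over the 767 genes tested, the values themselves were larger at day 2, 67532 and 66843 RPKM against 44094 and 44382 in fibroblasts. A large part of this gap was that of FTL, the most abundant gene tested, whose values are given above.

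Of 20 lysosomal genes tested against both fibroblast samples 3 were higher and 3 lower (15% each, beside 13.7% higher and 4.3% lower over all genes), and the median was -0.06. Against replicate 2 alone 2 of 33 were higher (6.06%, beside 3.06% of all genes) and none lower (beside 1.09%). FUCA1, among the higher genes of both comparisons, was under 1 RPKM in fibroblasts and could only be higher. HEXA, a subunit of hexosaminidase, stood at 110 and 93.9 RPKM at day 2 and 39.8 and 39.5 in fibroblasts (adjusted p = 0.00879), and GUSB, the lysosomal glucuronidase, at 35.6 and 44.7 at day 2 and 10.1 and 9.69 in fibroblasts (adjusted p = 0.00797). GALNS, a sulfatase of keratan sulfate, was lower, at 11.1 and 4.18 RPKM at day 2 and 25.2 and 28.3 in fibroblasts (adjusted p = 0.0265). Each of these calls was lost without either fibroblast sample and also without day 2 replicate 1 for HEXA and day 2 replicate 2 for GUSB and GALNS (largest adjusted p = 0.0797, 0.0757 and 0.166).

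Cell cycle genes gave no call. Of 16 tested against replicate 2, 11 were above 0, none was called and the median was 0.32, near that of all genes. MKI67, the proliferation marker Ki-67, stood at 11.7 and 12.7 RPKM at day 2 and 28.8 in fibroblasts (adjusted p = 0.44), with 1.99 and 2.77 in co-culture. The 14 DNA replication genes had a median of 0.09, the 26 subunits of oxidative phosphorylation one of 0.38 and the 25 proteasome subunits one of -0.19, each with no call by limma. A missed threshold with 2 samples and 1 does not show that these genes were alike.

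Pluripotency genes were mostly not covered or at 0. Of 27 listed, 7 were covered against replicate 2. SOX2, UTF1, FGF4 and LEFTY2, which act in or mark stem cells, were at 0 in both day 2 samples and in fibroblasts. KLF5, a Krüppel-like factor that supports self-renewal in mouse stem cells, was the 1 that passed the filter, at 5.67 and 6.90 RPKM at day 2 and 2.83 in fibroblasts, and was not called (log2 difference 0.92, SE 0.71, adjusted p = 0.546). DPPA5 was listed at 1.79 and 0 RPKM at day 2 and LIN28B at 0.10 and 0.998, both at 0 in fibroblasts. POU5F1, the pluripotency factor OCT4, was covered for 2 of its transcripts alone and entered no test: the first was at 0 and 26.3 RPKM at day 2 and 0.490 in fibroblasts, and the second at 56.9 and 22.3 at day 2 and 0.0537 in fibroblasts, with 0 in both co-cultures.

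Seen across all covered genes, 21 of the 1159 genes at 0 in both fibroblast samples were at 1 RPKM or more in both day 2 samples. In the other direction, the genes at 0 in both day 2 samples, not the same set, also numbered 1159; 7 of them were at 1 or more in both fibroblast samples. Besides the embryo genes above, those at 0 in fibroblasts included IL1A, the second interleukin 1 ligand, at 3.23 and 3.15 RPKM at day 2 (adjusted p = 0.0673). Those at 0 at day 2 included CHRNA1, the muscle acetylcholine receptor subunit, at 2.24 and 2.47 RPKM in fibroblasts (adjusted p = 0.00968), with 5.26 and 4.14 in co-culture. IL1A and CHRNA1 were named after their values were seen. Against replicate 2 alone 71 of 2013 genes at 0 were at 1 or more in both day 2 samples, and 26 of 1734 the reverse.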

How the data were processed

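Per the submitters' processing notes, the genome builds were hg19 and mm10; the alignment tool was not given in the sources used here. The deposited values were taken as RPKM, made by the authors per transcript; no header states the unit. Value times length fell loosely around multiples of a per-library step (59.7% and 41.4% of low values within 0.15 of a whole step at day 2, 64.7% and 61.8% in fibroblasts). Each table stops at 10000 distinct values; a human transcript missing before that point was taken as 0, one past it as not covered. Coding transcripts were summed per gene with RefSeq and GENCODE 29 names (132 accessions through the latter); genes within 2 accession numbers of the 287 unnamed coding accessions were set aside. Genes at 1 or more in at least 2 of the samples compared were tested with limma 3.58.1 in R 4.3.3 (lmFit, eBayes with trend, log2 of value plus 1); 10 libraries of the 5 replicated groups shared the spread, and 9 where fibroblast replicate 1 was left out. Named genes are the 12 largest rises and falls per gene set and up to 4 called members per list. Some genes this rule picks are not reported here. Members and lists were chosen with earlier results of these data known. Depth is not given, so no interval from counts is printed. Same-numbered replicates did not deviate together (r = 0.016 over 767 genes) and the labels do not pair them. The fit was tested on simulated data.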

Additional observations from a re-analysis of the deposited data

Results flagged for a closer look

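The table of unfused fibroblast replicate 1 holds, besides its human transcripts, 12043 accessions outside the human table with values of 2 decimals. The table of unfused fibroblast replicate 3 holds 8070 such accessions and no human transcript. These values lie outside the comparisons and no source used here names their unit.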

How the results depend on the processing

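Leaving out 1 sample at a time gave 22 to 54 higher and 8 to 18 lower genes against both fibroblast samples, and 15 to 30 higher and 2 to 6 lower against replicate 2 alone. With both samples, a spread from the compared samples alone gave 205 higher and 80 lower, quantile normalization 71 lower, and requiring coverage of every current accession, an alternative chosen after seeing the data, 69 higher and 17 lower of 420 tested. Against replicate 2 alone, the lower genes numbered 58 with no filter, 45 with quantile normalization and 7 without the trend. With the replicate block, 102 were higher and 29 lower against both samples, and 52 and 20 against replicate 2; this is not a paired design. The causes were not tested, except that leave-one-out fits had fewer samples. Of 54 named calls against both samples 23 held without each sample in turn, and of 54 against replicate 2 alone 11 held without either day 2 sample. No named call changed direction under any setting. Unknown depth limits every gene at low values, and isoform sums can move where a transcript is unlisted.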
